A study of Mus musculus with 12 samples.

Results

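The 39 Hox genes of the mouse, the members described here, were the protein-coding genes of GENCODE vM21 (genome build GRCm38) whose names consist of Hox, a cluster letter from a to d and a number, out of 21938 protein-coding genes on chromosomes 1 to 19, X and Y. The cells were Min6, a β-cell line derived from a mouse insulinoma, grown for 3 days and treated for 48 h with the JNK inhibitor SP600125 at 20 µM (JNKi) or with its vehicle DMSO. In both treatments, CUT&RUN, which cuts and sequences the DNA around an antibody's target, was carried out on 550000 cells per reaction with an antibody against cJun, against trimethylated lysine 4 of histone H3 (H3K4me3, the positive control), or with non-specific IgG. The 12 samples formed 6 groups of 2 biological replicates, and the 4 peak lists analysed here each combined both replicates of 1 antibody in 1 treatment. Every group came from this single tumour-derived line. The methods give 1 planned sequencing depth for every library, and the depth obtained was not analysed here. Since each list merges its replicates, counts of peaks and genes have no replicate error and are given as descriptions.

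Hox genes encode homeodomain transcription factors that give cells their position along the body axis. They lie in 4 clusters, and within a cluster their order on the chromosome follows the order of their expression from head to tail. Genes with the same number in different clusters are paralogues: groups 1 to 3 act mostly in the hindbrain and anterior trunk, groups 4 to 8 in the trunk, and groups 9 to 13 in the lumbar, tail, limb and urogenital regions. H3K4me3 marks the start sites of active genes and of most CpG-rich promoters, and is laid down at Hox genes by the MLL proteins of the trithorax group. The Polycomb group acts in the opposite sense and is known for keeping Hox genes silent where they are not used.

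In Min6 cells no Hox gene had a peak of either kind at a start in the basic GENCODE annotation, and with a fuller transcript set Hoxc6 alone had an H3K4me3 peak. An H3K4me3 peak within 3 kb of a transcription start site (TSS) was found for 0 of 39 Hox genes in DMSO and 0 of 39 in JNKi, whereas 60.1% of all protein-coding genes had such a peak in DMSO and 59.5% in JNKi. A cJun peak within 3 kb was found for 0 of 39 in both treatments, against 7.84% of all protein-coding genes in DMSO and 2.89% in JNKi. At such low shares, 39 genes in 4 clusters are too few to set the cJun counts of 0 apart, in JNKi above all. The clusters held 85 annotated genes of any type, 46 of them beside the Hox genes, among them antisense, non-coding and microRNA genes. Of the 85, 0 had a peak of any list within 3 kb of a TSS of a basic GENCODE transcript. A share over genes of all types is not given here to set beside this count. As no member had a peak, none differed between treatments, and none had a peak width or rank at its start that could be compared. The lists hold peaks that were called in both replicates, so a weaker signal, or one called in 1 replicate only, would not be seen here.

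The cells carried the promoter mark at the genes that define the line. An H3K4me3 peak lay within 3 kb of a TSS for 14 of 15 β-cell marker genes in both treatments, and Ins1, which encodes one of the mouse insulins, was the marker without one. The same was true of 3 of 10 acinar and duct markers in both treatments, of 2 of 11 mesenchyme, endothelium and blood markers in both, and of 3 of 9 markers of other islet endocrine cells in DMSO and 2 of 9 in JNKi. The H3K4me3 lists held 19372 peaks in DMSO and 19032 in JNKi, and the cJun lists 4960 and 1632.

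The Hox clusters covered 492 kb in all. The Hoxa cluster lay at chr6:52155590-52260880 on the minus strand with 11 genes in 105 kb. The Hoxb cluster lay at chr11:96194316-96368256 on the plus strand with 10 genes in 174 kb. The Hoxc cluster lay at chr15:102921103-103036852 on the plus strand with 9 genes in 116 kb. The Hoxd cluster lay at chr2:74668310-74765142 on the plus strand with 9 genes in 96.8 kb. H3K4me3 peaks covered 0.432% of these bases in DMSO and 0.34% in JNKi, compared with 1.46% and 1.47% of the genome. Hoxa and Hoxd held no H3K4me3 peak in either list, and Hoxb and Hoxc held 1 each in both lists. At the density of the whole genome, 492 kb would hold 3.5 H3K4me3 peaks in DMSO and 3.43 in JNKi. No cluster held a cJun peak in DMSO or JNKi, where genome density would give 0.895 in DMSO and 0.294 in JNKi.

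**Figure D1:**
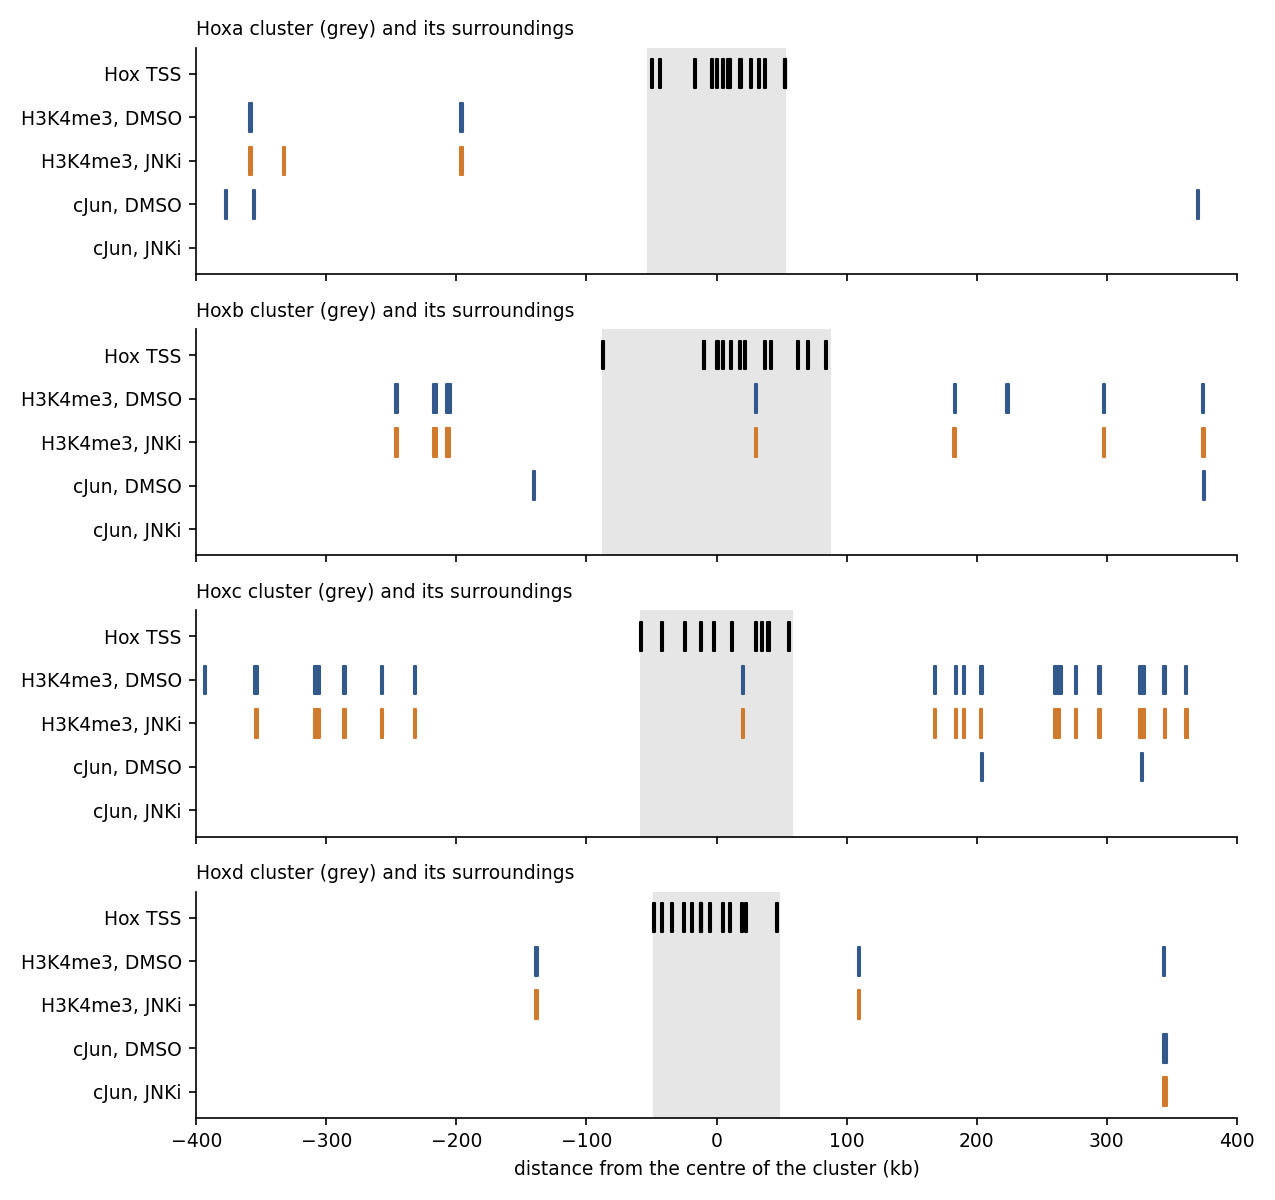
Map of the 4 Hox clusters (grey) and 400 kb to each side of their centres, in kb from the centre along the chromosome, with a row for the Hox TSSs and a row for the peaks of each list. Peaks are drawn at their own width or at a minimum width for visibility. Apart from 1 H3K4me3 peak in Hoxb and 1 in Hoxc, found in both treatments, the grey intervals hold no peak.

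The starts of Hox genes were then described by CpG, the dinucleotide that marks most promoters carrying H3K4me3. In the sequence 500 bp to each side of a TSS, the ratio of observed to expected CpG had a median of 0.721 over the 39 Hox genes and 0.606 over all protein-coding genes, taking the highest ratio of a gene's TSSs. A TSS was called CpG-rich with a ratio of at least 0.6 and a GC content of at least 50%. By this measure 27 of 39 Hox genes (69.2%) were CpG-rich, compared with 49.2% of all protein-coding genes. The call depended on the start and window used. Of 22 Hox genes with a RefSeq window of 300 bases, 17 were CpG-rich by this measure (77.3%) and 11 in that window (50%), against 51.3% and 50.2% of 16539 protein-coding genes with one. Hoxa2, Hoxa7, Hoxa9, Hoxb8, Hoxd8 and Hoxd9 lost the call, and the 22 genes are too few of the 39 members for a comparison of the whole group. The share by GENCODE starts was 11 of 11 in Hoxa, 5 of 10 in Hoxb, 4 of 9 in Hoxc and 7 of 9 in Hoxd. Hoxd8, a trunk gene, had a ratio of 1 (0.367 in its RefSeq window), Hoxa5, known for its part in lung development, had 0.996, and Hoxa13, needed for digits and the urogenital tract, had 0.948. At the other end, Hoxb3 had 0.34, Hoxb2 0.399 and Hoxc4 0.412.

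The windows of 300 bases around the RefSeq start of 3 Hox genes are given as examples with many and with few CpG. They run from 250 bases before to 50 after the start (GRCm38.p6, 5′ to 3′ on the gene's strand, with each CpG in capitals). Hoxa5 and Hoxa13 are shown as CpG-rich starts without an H3K4me3 peak, and Hoxb1, a hindbrain gene, as a start with few CpG. RefSeq windows were available for 22 of the 39 members, so the ratios above were taken from the assembly instead. The Hoxa5 window, chr6:52204538-52204837 on the minus strand, held 29 CpG, the Hoxa13 window, chr6:52260831-52261130 on the minus strand, held 45, and the Hoxb1 window, chr11:96365508-96365807 on the plus strand, held 10.
Hoxa5: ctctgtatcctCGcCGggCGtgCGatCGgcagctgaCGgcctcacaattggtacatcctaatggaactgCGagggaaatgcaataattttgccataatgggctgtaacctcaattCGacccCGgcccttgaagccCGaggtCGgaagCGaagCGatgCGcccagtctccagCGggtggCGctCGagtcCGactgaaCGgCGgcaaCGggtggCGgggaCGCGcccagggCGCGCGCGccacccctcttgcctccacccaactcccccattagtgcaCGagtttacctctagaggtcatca
Hoxa13: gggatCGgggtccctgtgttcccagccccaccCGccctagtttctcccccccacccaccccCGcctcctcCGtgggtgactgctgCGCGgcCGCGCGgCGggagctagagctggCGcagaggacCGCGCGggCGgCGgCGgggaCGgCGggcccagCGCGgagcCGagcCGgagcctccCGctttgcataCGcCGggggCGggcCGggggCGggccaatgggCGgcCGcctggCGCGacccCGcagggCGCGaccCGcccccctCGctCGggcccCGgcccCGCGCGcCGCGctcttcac
Hoxb1: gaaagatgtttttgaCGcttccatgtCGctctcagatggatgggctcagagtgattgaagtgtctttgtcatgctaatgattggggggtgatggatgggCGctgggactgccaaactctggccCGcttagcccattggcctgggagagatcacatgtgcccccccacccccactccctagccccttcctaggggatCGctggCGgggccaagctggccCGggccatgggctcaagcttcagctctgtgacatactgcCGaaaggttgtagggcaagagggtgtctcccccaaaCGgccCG

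Elsewhere in the genome, starts of this composition mostly had the mark in these cells. Of 10794 protein-coding genes with a CpG-rich TSS, 92.6% had an H3K4me3 peak within 3 kb in DMSO and 91.9% in JNKi. Where no TSS was CpG-rich (11144 genes) the shares were 28.6% and 28.2%. With RefSeq windows, 92.6% and 91.8% of 8297 CpG-rich genes had a peak, and 0 of 11 CpG-rich Hox genes did. The 27 CpG-rich Hox genes were thus among 794 CpG-rich genes with no H3K4me3 peak in DMSO and 876 in JNKi, of which they made up 3.4% and 3.08%. From the CpG-rich Hox genes the nearest H3K4me3 peak in DMSO was a median of 112 kb away (7.34 to 247 kb), and from the other 767 unmarked CpG-rich genes a median of 72.8 kb, with the 25th and 75th percentiles at 29 and 161 kb. In the bin with a CpG ratio from 0.8 to 1.0, which held 13 Hox genes, 95.1% of 4716 genes had a peak in DMSO and 94.6% in JNKi.

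**Figure D2:**
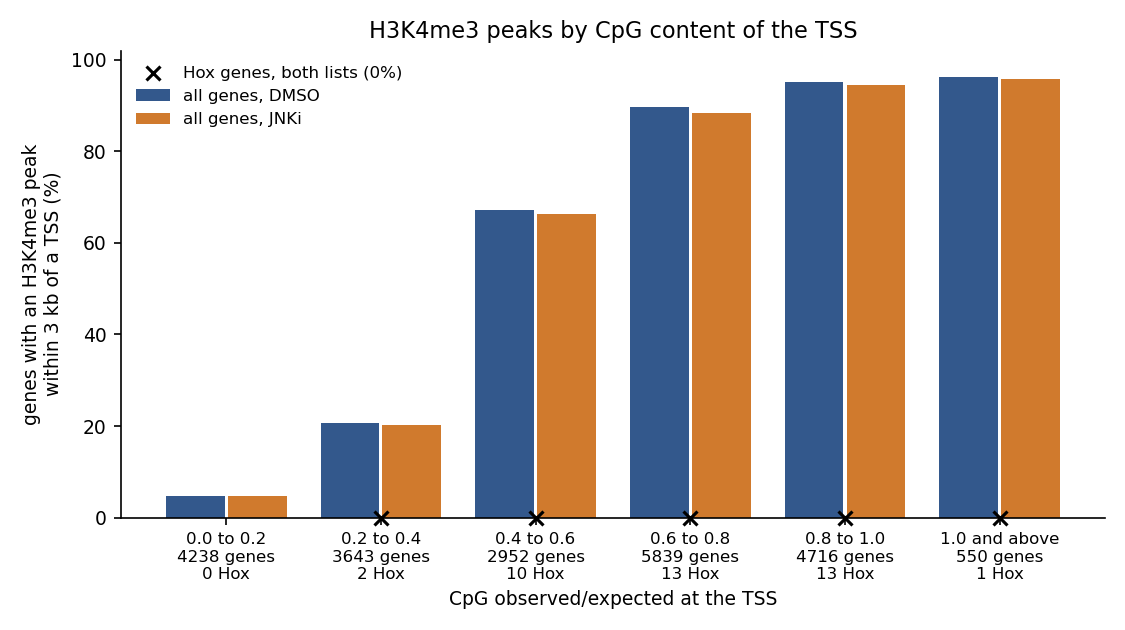
Share of protein-coding genes with an H3K4me3 peak within 3 kb of a TSS (vertical axis, percent) by the ratio of observed to expected CpG within 500 bp of the TSS (horizontal axis), in DMSO and JNKi, with the number of genes and of Hox genes in each bin. Crosses mark the Hox genes, at 0% in every bin that holds any, while the share over all genes runs from 4.79% in the lowest bin to 96.2% in the highest in DMSO.

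The recognition sequences of cJun were searched at the same starts. The AP-1 site, searched as TGACTCA and TGAGTCA on both strands, lay within 500 bp of any basic GENCODE TSS in 1 of 39 Hox genes, Hoxb3 (2.56%), and in 16.2% of all protein-coding genes. The RefSeq window of another Hoxd11 start, chr2:74679308-74679607, also held 1. The CRE site TGACGTCA, bound by dimers of cJun with ATF proteins, lay at 1 of 39, Hoxc10 (2.56%), and at 3.82% of all protein-coding genes. A matching sequence is a description of the reference and not evidence of binding, and neither Hoxb3 nor Hoxc10 had a cJun peak within 3 kb.

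The distance from each Hox gene to the nearest H3K4me3 peak was longest in Hoxa, while the ranges of the other clusters overlapped. Over the 39 genes the median distance in DMSO was 85.8 kb, from 6.31 to 247 kb. The median over all protein-coding genes was 0 kb, a peak over the TSS, and over the 8750 genes with no peak within 3 kb it was 81.3 kb. The Hoxa genes were the farthest, with a median of 199 kb and up to 247 kb for Hoxa13. The Hoxd genes lay 62.4 kb (Hoxd1) to 120 kb (Hoxd8) away, with a median of 98.3 kb. The ranges of Hoxa and Hoxd did not overlap, and every gene of both lay farther from a peak than 3 in 4 protein-coding genes, whose 75th percentile was 46.9 kb.

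For every Hoxb and Hoxc gene the nearest H3K4me3 peak was the one inside its own cluster. In DMSO, Hoxb4, which promotes the expansion of blood stem cells, was 6.31 kb from it and Hoxb5 7.34 kb. Hoxb3, Hoxb6, Hoxb7 and Hoxb8 followed at 11.4, 11.7, 24.2 and 28.1 kb. Hoxb9 and Hoxb2 were 39.3 and 39.7 kb away, and Hoxb1 53.8 kb. Hoxb13, a gene of the hindgut and prostate that stands apart from the rest of its cluster, was 117 kb away. In Hoxc, Hoxc8 was 8.26 kb and Hoxc6 9.68 kb from the peak, and the distance reached 77.8 kb at Hoxc13, a gene of hair and nail. In JNKi the medians were the same for every cluster, at 199, 26.2, 21.8 and 98.3 kb, and Hoxb4 and Hoxc8 were 6.37 and 8.27 kb from a peak. By position on the body axis, the median distance in DMSO was 74.1 kb for the 8 genes of groups 1 to 3, 24.2 kb for the 15 genes of groups 4 to 8 and 98.9 kb for the 16 genes of groups 9 to 13, with overlapping ranges. Position and cluster cannot be told apart in these medians. The inner peaks of Hoxb and Hoxc lie between genes of groups 4 to 8, and Hoxc has no gene of groups 1 to 3.

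**Figure D3:**
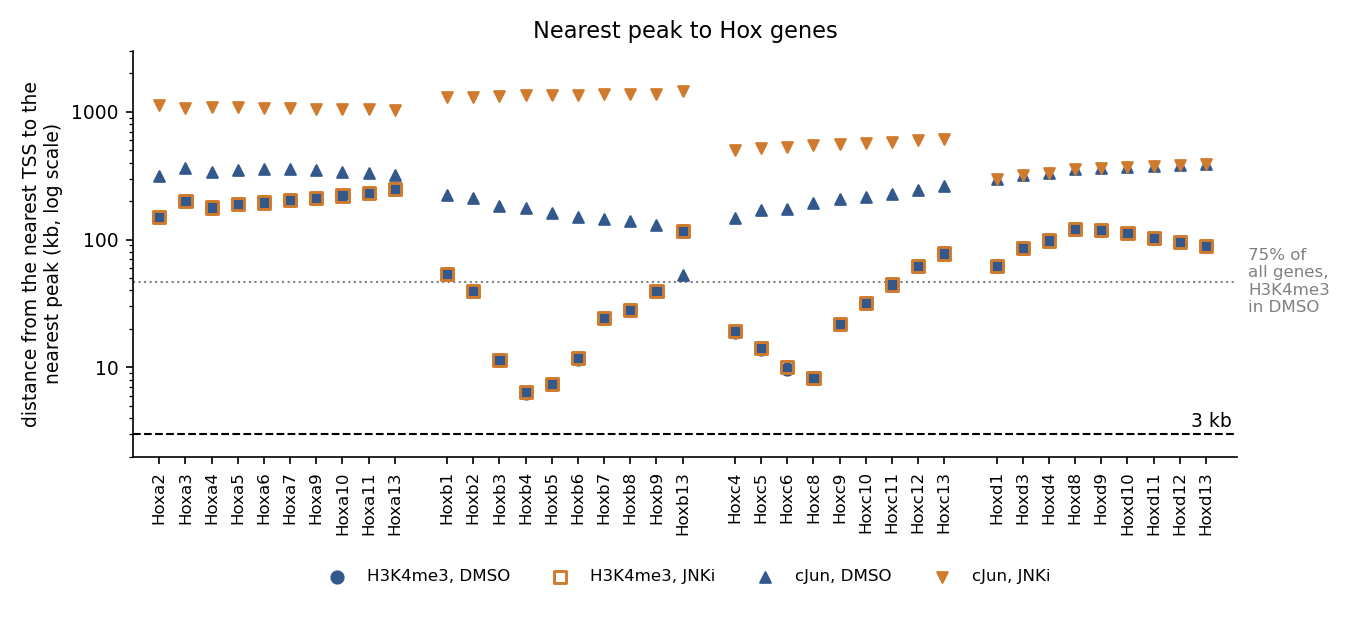
Distance in kb, on a log scale, from the TSSs of each Hox gene shown to the nearest H3K4me3 and cJun peak in DMSO and JNKi, ordered by cluster and paralogue group. The dashed line is the 3 kb window and the dotted line the 75th percentile over all protein-coding genes for H3K4me3 in DMSO, at 46.9 kb. All points shown lie above 3 kb, and the H3K4me3 points of DMSO and JNKi coincide for nearly every gene.

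The nearest cJun peak was farther away in the median, though not for Hoxb13 in DMSO. In DMSO the median distance over the Hox genes was 297 kb, from 53.2 to 392 kb, against 176 kb over all protein-coding genes. In JNKi, with its shorter cJun list, the median was 1041 kb, from 297 to 1466 kb, against 521 kb over all protein-coding genes. Over genes with no cJun peak within 3 kb the median was 204 kb in DMSO and 554 kb in JNKi. Neighbouring Hox genes mostly shared the same nearest cJun peak, in JNKi all genes of a cluster. The Hox medians therefore rest on few peaks. The gene closest to a cJun peak in DMSO was Hoxb13, at 53.2 kb from a peak of 265 bp at chr11:96140882-96141146. That peak ranked 2742 of 4960 in its list, with replicate −log10 p of 10.9 and 5.62, and lay 6663 bp from the TSS of Ttll6, the nearest gene. The JNKi list held no cJun peak in that place, and Hoxb13 was 1466 kb from the next one. The Hoxd genes kept 1 nearest cJun peak in both treatments, 295 kb beyond the cluster and downstream of Mtx2. It spanned chr2:75060222-75061351 in DMSO, where it ranked 315 of 4960 (replicate −log10 p of 14.2 and 18.1), and chr2:75060347-75061345 in JNKi, where it ranked 298 of 1632 (9.86 and 11.8).

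The H3K4me3 peak inside Hoxb lay between Hoxb5 and Hoxb4. In DMSO it spanned chr11:96310855-96311953, 1099 bp, with replicate −log10 p of 14.3 and 33, and ranked 14715 of 19372. In JNKi it spanned chr11:96310917-96311901, 985 bp, with −log10 p of 20.2 and 21, and ranked 13679 of 19032. Its irreproducible discovery rate (IDR) was 0.306 in DMSO and 0.0416 in JNKi, where a low value means that the replicates ranked the peak alike. It was intergenic in GENCODE and lay 6314 bp from the Hoxb4 TSS, 7343 bp from that of Hoxb5 and 5212 bp from the microRNA gene Mir10a. The DMSO peak had a GC content of 49.1%, a CpG ratio of 0.363 and no AP-1 or CRE site.

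The H3K4me3 peak inside Hoxc lay between Hoxc8 and Hoxc6. In DMSO it spanned chr15:102998871-102999894, 1024 bp, with −log10 p of 7.58 and 9.7, and ranked 16937 of 19372. In JNKi it spanned chr15:102998873-102999558, 686 bp, with −log10 p of 11.6 and 10.7, and ranked 15589 of 19032. Its IDR was 0.306 in DMSO and 0.282 in JNKi, which was the highest value of each list and was shared by 21.6% and 19.8% of its peaks. It lay 8264 bp from the Hoxc8 TSS and 9679 bp from the Hoxc6 TSS of the basic annotation. The full GENCODE set also holds a non-coding Hoxc6 transcript that starts at position 102998257, 614 bp before the peak, which lay in an intron of that transcript and within the annotated limits of Hoxc5 and Hoxc6. With all GENCODE transcripts, or with RefSeq transcripts, Hoxc6 was the 1 Hox gene with an H3K4me3 peak within 3 kb in both treatments, while the share over all genes with GENCODE transcripts was 61.2% in DMSO and 60.5% in JNKi. The DMSO peak had a GC content of 60.6%, a CpG ratio of 0.495 and no AP-1 or CRE site.

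The sequence around the DMSO summit of both peaks is given because these were the only H3K4me3 peaks inside a Hox cluster (300 bases, GRCm38, plus strand, each CpG in capitals). The Hoxb window, chr11:96311241-96311540, held 4 CpG, and the Hoxc window, chr15:102999150-102999449, held 15.
Hoxb peak: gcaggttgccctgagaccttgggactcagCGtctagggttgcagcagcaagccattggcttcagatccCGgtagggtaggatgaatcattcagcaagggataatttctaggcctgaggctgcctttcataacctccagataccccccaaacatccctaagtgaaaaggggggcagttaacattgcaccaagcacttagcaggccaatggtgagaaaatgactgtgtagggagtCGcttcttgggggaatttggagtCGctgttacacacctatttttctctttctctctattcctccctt
Hoxc peak: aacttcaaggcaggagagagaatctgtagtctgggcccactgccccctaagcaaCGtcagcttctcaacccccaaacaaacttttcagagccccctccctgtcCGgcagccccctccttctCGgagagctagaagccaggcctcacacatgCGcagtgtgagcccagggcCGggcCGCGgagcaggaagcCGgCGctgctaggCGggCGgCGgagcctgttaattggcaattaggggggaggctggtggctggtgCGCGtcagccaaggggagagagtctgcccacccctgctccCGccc

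Both intracluster peaks were narrow and weak within their lists. All H3K4me3 peaks together had a median width of 1839 bp in DMSO and 1907 bp in JNKi. The log2 ratio of the JNKi to the DMSO width was −0.16 for the Hoxb peak and −0.58 for the Hoxc peak. Over 17494 peaks that overlapped 1 to 1 between treatments the median was 0.01, with 5th and 95th percentiles of −0.33 and 0.37, so that the Hoxb value lay inside this range and the Hoxc value below it, at the 1.83 percentile. The widths called in the single replicates of the Hoxc peak were 987 and 986 bp in DMSO and 623 and 422 bp in JNKi, which do not overlap. Those of the Hoxb peak were 1029 and 974 bp in DMSO and 802 and 768 bp in JNKi, and did not overlap either. The −log10 p of the replicates did not move with the width: for Hoxc they were higher in JNKi than in DMSO, and for Hoxb both JNKi values fell between the DMSO values. In an exact two-sided permutation test of the replicate widths, 2 against 2, p was 0.333 for both peaks, the smallest value this design allows. Widths that do not overlap always give this value, so the test adds nothing to the widths themselves.

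The peaks nearest to Hoxa, Hoxb and Hoxd on each side lay over the TSS of a protein-coding gene, and those nearest to Hoxc did not. In DMSO the lower-coordinate neighbour of Hoxa was a peak of 2460 bp over the TSS of Skap2, an adaptor protein, 142 kb from the cluster (replicate −log10 p of 198 and 139). The other neighbour was a peak over Hibadh, a mitochondrial enzyme of valine breakdown, 378 kb away. Hoxb lay between peaks over Atp5g1, a subunit of ATP synthase, at 117 kb and Skap1 at 95.3 kb. Hoxd lay between peaks over Lnpk, a protein of the endoplasmic reticulum, at 88.5 kb and Mtx2, a mitochondrial import protein, at 60.2 kb. The neighbours of Hoxc were narrow peaks of 1019 and 1199 bp that were not within 3 kb of a protein-coding TSS, at 174 and 110 kb. Of 10 flanking non-Hox genes listed for comparison, 9 had an H3K4me3 peak within 3 kb of a TSS in both treatments, and Ttll6 had none. The Hibadh peak had replicate −log10 p of 210 and 6.36 in DMSO and 309 and 248 in JNKi, and the Atp5g1 peak 522 and 31.2 in DMSO and 510 and 428 in JNKi, so that 1 DMSO replicate stood far below the other 3 values in both cases.

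**Figure D4:**
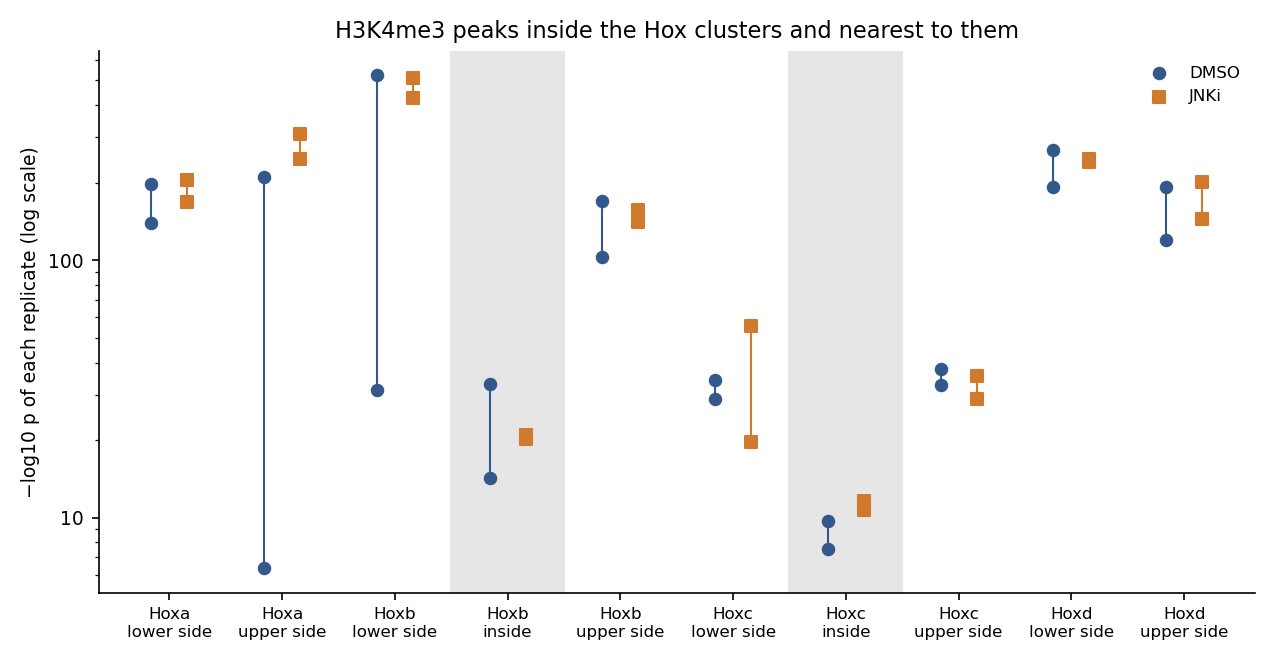
The −log10 p of each replicate (log scale) for the H3K4me3 peaks inside the Hoxb and Hoxc clusters (grey) and for the nearest peak on the lower and upper coordinate side of each cluster, in DMSO and JNKi. A line joins the 2 replicates of a list. Both DMSO and JNKi values of the Hoxc peak lie between 7.58 and 11.6, and those of the Hoxb peak between 14.3 and 33.

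The intervals without H3K4me3 around the clusters differed in length and in the number of genes they held. In DMSO the Hoxa cluster sat in an interval of 625 kb, the length rank 874 of 19351 such intervals, whose median was 35.6 kb. It held 14 protein-coding genes, the 11 Hoxa genes with Evx1, Gm28308 and 5730596B20Rik, and 84 intervals (0.434%) held as many or more. The Hoxd cluster sat in an interval of 246 kb with 11 protein-coding genes, the 9 Hoxd genes with Evx2 and Gm28230, and 110 intervals (0.568%) held as many or more. Evx1 and Evx2 are homeobox genes that lie beside the clusters, and both had a CpG-rich TSS and no peak in any list. Hoxb was split by its inner peak into intervals of 234 kb with 6 Hox genes and 152 kb with 4, and Hoxc into 252 kb with 6 and 146 kb with 1, counting genes that lie wholly inside. With other genes included, the Hoxb intervals held 8 and 4 protein-coding genes, and 0.827% and 2.16% of all intervals held as many or more. The Hoxc intervals held 6 and 1, and 1.21% and 16.4% held as many or more. In JNKi the lengths were 625 kb for Hoxa, 246 kb for Hoxd, 234 and 151 kb for Hoxb and 251 and 147 kb for Hoxc. In both lists the interval with the most genes held 142 protein-coding genes, 116 of them olfactory receptor genes. Other gene-rich intervals held olfactory receptor, vomeronasal receptor or further gene families.

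The microRNA genes of the clusters had no peak within 3 kb, and the share over all microRNA genes is not given here. In DMSO the nearest H3K4me3 peak was 5.21 kb from Mir10a in Hoxb, 15 kb from Mir615 in Hoxc, 45.7 kb from Mir196a-1 in Hoxb, 25.5 kb from Mir196a-2 in Hoxc, 99.3 kb from Mir10b in Hoxd and 216 kb from Mir196b in Hoxa. MicroRNAs repress messenger RNAs that match their seed, bases 2 to 8, and those of the miR-196 family are known to target Hox messenger RNAs. The mature sequences are shown because paralogous clusters carry copies with the same seed (RefSeq, GRCm38.p6, seed in capitals): miR-10a and miR-10b share one seed, and miR-196a and miR-196b another.
miR-10a-5p: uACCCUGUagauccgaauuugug
miR-10b-5p: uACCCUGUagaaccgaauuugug
miR-196a-5p: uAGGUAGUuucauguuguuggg
miR-196b-5p: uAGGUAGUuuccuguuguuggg

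Lists of Hox partners and regulators were then counted in the same way, beside the shares of 60.1% and 59.5% over all protein-coding genes and of 92.6% and 91.9% over CpG-rich ones. All 9 genes of the TALE class, the Pbx, Meis and Pknox cofactors that bind DNA together with Hox proteins, had an H3K4me3 peak within 3 kb in both treatments. In DMSO their best-ranked peaks were 2201 to 7793 bp wide, with a median of 3292 bp, and Pbx3 had the widest. Pknox1 and Pknox2 had a cJun peak within 3 kb in DMSO (2 of 9) and 0 of 9 did in JNKi. Over all protein-coding genes these shares were 7.84% and 2.89%, and at such shares 9 genes are too few to set the JNKi count apart. All 8 trithorax genes examined had an H3K4me3 peak in both treatments, among them Kmt2a and Kmt2b, which encode MLL1 and MLL2, and Men1, which encodes menin. The Kmt2b peak of 3069 bp ranked 87 of 19372 in DMSO and the Men1 peak of 2668 bp ranked 149. All 16 Polycomb genes had a peak in both treatments as well. A CpG-rich TSS was present in 6 of 9 TALE, all 8 trithorax and all 16 Polycomb genes. The Ezh2 peak, at the gene for the methyltransferase of H3 lysine 27, was 3872 bp wide in DMSO and 4411 bp in JNKi. Bmi1, Phc2, Cbx8 and Jarid2 had a cJun peak within 3 kb in DMSO (4 of 16, 25%), and Phc2 had one in JNKi (1 of 16, 6.25%), against 7.84% and 2.89% over all protein-coding genes.

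Other homeobox families were divided. Of 6 ParaHox genes, the evolutionary sister group of the Hox clusters, Gsx1, Pdx1 and Cdx2 had an H3K4me3 peak in both treatments and Gsx2, Cdx1 and Cdx4 did not. These 3 marked genes are neighbours on chromosome 5. Pdx1, a regulator of pancreas development and of the insulin genes, had peaks of 12246 and 736 bp in DMSO and a peak of 13850 bp in JNKi. The replicates differed widely: the −log10 p was 3.01 and 10.5 for the wider DMSO peak, which ranked 19370 of 19372, and 734 and 8.29 for the JNKi peak. Pdx1 was the ParaHox gene with a cJun peak within 3 kb, in both treatments. The Gsx1 peak measured 3589 bp (DMSO) and 3592 bp (JNKi), and the Cdx2 peak 3336 and 3033 bp. Of 78 other homeobox genes, 37 had an H3K4me3 peak in DMSO (47.4%) and 33 in JNKi (42.3%). Among those with a CpG-rich TSS the counts were 31 of 66 in DMSO and 27 of 66 in JNKi. Pax6, an islet regulator, had a peak of 23064 bp in DMSO and 23050 bp in JNKi, Isl1 one of 16479 and 16839 bp, and Nkx6-1 one of 10619 and 10546 bp.

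The other homeobox genes that differed between treatments were Gbx1, En2, Dlx4 and Msx2, with a peak in DMSO and none in JNKi. They were 4 of 78 (5.13%), and 0 of 78 had a peak in JNKi alone, while 0.953% of all protein-coding genes had a peak in DMSO alone and 0.378% in JNKi alone. Their DMSO peaks were 397 to 860 bp wide and ranked between 16769 and 18933 of 19372. The −log10 p of these peaks was 4.11 to 7.87, and their IDR was 0.306, the highest value of that list. A cJun peak lay within 3 kb of Pax6, Nkx6-1, Irx5, Isl1 and Onecut2 in DMSO (5 of 78) and of Nkx2-2, Nkx6-1 and Irx5 in JNKi (3 of 78). These shares, 6.41% and 3.85%, were near the 7.84% and 2.89% of all protein-coding genes. The Irx5 cJun peak ranked 78 of 4960 in DMSO and 91 of 1632 in JNKi. Retinoic acid is a classical inducer of Hox genes, and 7 of 14 genes of its signalling and metabolism had an H3K4me3 peak in both treatments. The receptor genes Rara, Rarg, Rxra and Rxrb were among the marked, and Rarb, Rxrg, Aldh1a2, Aldh1a3, Crabp1, Cyp26a1 and Cyp26c1 were without a peak. Rara and Rarg had a cJun peak within 3 kb in DMSO, and no gene of this list did in JNKi.

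**Figure D5:**
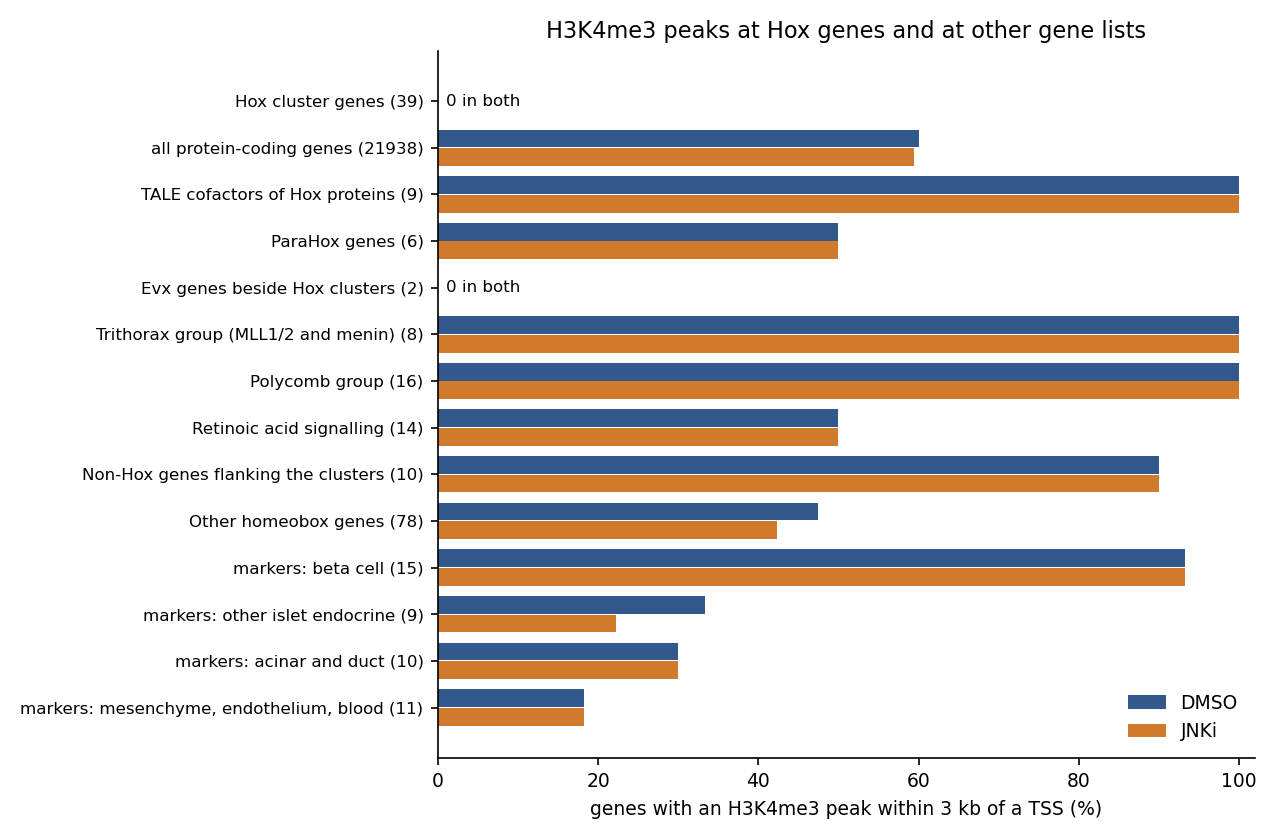
Share of genes with an H3K4me3 peak within 3 kb of a TSS (horizontal axis, percent) in DMSO and JNKi for the Hox genes, all protein-coding genes and each list used for comparison, with the number of genes in brackets. The Hox genes and the Evx genes are at 0 in both treatments, while the TALE, trithorax and Polycomb lists are at 100%.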

How the data were processed

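CUT&RUN was performed in Min6 cells treated with DMSO or SP600125, and the 12 samples were grouped by their labels. After adapter trimming with Trimmomatic, the authors mapped reads with Bowtie2 2.4.2 to GRCm38, filtered alignments with SAMtools 1.16, called narrow peaks against IgG with MACS2 2.2.7.1 and paired replicates with IDR. The 4 deposited lists have 20 columns without a header or replicate numbers. The deposited −log10 p-value of a peak is the lower of the values of its replicates, and peaks were ranked by it within a list. The deposited score used here is the −log10 of the global IDR, converted to IDR. All 4 lists reached down to a −log10 p of 3.01. The methods name default settings for MACS2 without giving a threshold, and the threshold behind the lists is not given in the sources used here.

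A peak was assigned to a gene when at least 1 bp of it lay within 3 kb of a TSS of any GENCODE vM21 basic transcript, which gave 55 TSSs for the 39 Hox genes. A cluster ran from the lowest start to the highest end of its genes. CpG content was computed from the GRCm38.p6 assembly, a choice made after seeing that promoter windows were missing for many members. Peak assignment was tested on simulated data, where 400 of 400 planted peaks were found with 0 false calls. Python 3.11.15, pandas 2.3.3 and samtools 1.23.1 were used. The rule for naming Hox genes took every member without a peak, which with basic transcripts was all of them. Those given single values, by distance, CpG ratio, motif or nearness to an inner peak, were therefore picked after their values were seen. The members and lists were chosen with earlier results of these data known. Alternatives were IDR of at most 0.05 or 0.01, other distances, other start site sets and widened clusters. Replicates were compared by an exact permutation test for the widths of the intracluster peaks alone, chosen after seeing them, and counts were not tested, since a list holds only peaks called in both replicates. Reads, coverage, duplicates, mappability and the IgG libraries were not analysed here. The values of 1 member are not reported here.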

Additional observations from a re-analysis of the deposited data

How the results depend on the processing

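The count of Hox genes with an H3K4me3 peak stayed at 0 of 39 in both treatments under the stricter settings. These were IDR of at most 0.05 or 0.01, the TSS inside the peak, 1 kb, the peak midpoint and the most upstream coding TSS. They only narrow the main rule, so a count of 0 could not rise under them. The share over all genes with the TSS inside the peak was 56.9% in DMSO and 56.4% in JNKi. With all GENCODE or RefSeq transcripts, alternatives chosen after seeing the data, the count became 1 in DMSO and 1 in JNKi, the gene being Hoxc6. With a wider window, also chosen after seeing the data, it was 4 in DMSO (Hoxb4, Hoxb5, Hoxc6 and Hoxc8) and 3 in JNKi (without Hoxc6) within 10 kb, where 64% and 63.5% of all genes had a peak, and 15 in both within 50 kb, where 75.6% and 75.1% did. The cJun count was 0 under every setting, 50 kb and widened clusters included. The share of all genes with a cJun peak within 10 or 50 kb is not given here. Over all protein-coding genes the median distance to a cJun peak was 176 kb in DMSO and 521 kb in JNKi. Coverage of Hoxb in DMSO, 0.632% of its bases, became 0 with IDR of at most 0.05 or 0.01 and 0.567 with the cluster widened by 10 kb, and that of Hoxc, 0.885%, became 0, 0 and 0.754. In JNKi coverage of Hoxb, 0.566%, became 0 with IDR of at most 0.01 and 0.508 when widened, and that of Hoxc, 0.593%, became 0 with either IDR limit. Both inner peaks of DMSO and the Hoxc peak of JNKi thus rest on peaks with IDR above 0.05. IDR does not remove weak peaks alone: of the 1000 strongest H3K4me3 peaks, 191 in DMSO and 254 in JNKi had an IDR above 0.05. The number of CpG-rich Hox genes among 22 fell from 17 to 11 with RefSeq windows, also chosen after seeing the data. Of 73 alternative values, 54 stayed with the main value and 19 moved. Many of the 54 were values of 0 that a stricter setting could not raise, so this tally does not measure stability. Peak widths and ranks at Hox genes gave no value under the planned settings, where no member had a peak, and motifs at cJun summits in the clusters gave none under any setting run. No replicate could be left out, because each list holds only peaks called in both. No paired analysis was possible because each list merges its replicates and the replicate columns carry no numbers.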
